A study of Mus musculus with 16 samples.

Results

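The genes described here are 7 genes that encode parts of the Polycomb machinery, namely Cbx2, Cbx8, Ezh1, Kdm6b, Bmi1, Kdm2b and Phc2. They were followed through the histone mark H3K27me3 that lies on or beside them. A peak was counted to a gene when it overlapped the span of that gene or the 2 kb on either side, in the mouse build mm10. This gave 17 peaks for the 7 genes, out of 102957 consensus peaks, while 20257 coding and lncRNA genes had a peak by the same rule. Cbx2, Cbx8, Ezh1 and Kdm6b lie on chromosome 11 and are given apart from Bmi1 on chromosome 2, Kdm2b on chromosome 5 and Phc2 on chromosome 4.

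The study asked how induction of the long noncoding RNA Firre changes H3K27me3 in mouse embryonic stem cells (mESC). There were 4 lines: a Firre knockout with a doxycycline-inducible Firre transgene, a line labelled Firre KO without it, a Firre WT line with the inducible transgene, and a WT line without it. Each line was seen after 48 h and at 0 h of doxycycline, the treatment named for every library, with 1 H3K27me3 library and 1 input library per line and time, or 16 libraries in all. Input is sheared chromatin sequenced without the antibody step, so its counts follow the amount of DNA. Cells of every group were grown with LIF, the MEK inhibitor PD0325901 and the GSK3 inhibitor CHIR99021. The labels give no clone, promoter or separate culture, so p-values measure only the spread between these libraries, which may be technical. The fits took that spread largely from all regions or peaks together, and not from each gene alone. H3K27me3 libraries held 10380781 to 14787938 counts in peaks and input libraries 3340654 to 6244333. As a check of the assay, the 39 Hox genes, known Polycomb targets, had a median H3K27me3 over input ratio of 2.18 ± 0.178 across their 6 regions, and the 3 of 12 housekeeping genes with a peak had 0.766 ± 0.0816 (SD over 8 conditions).

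Libraries stood apart in 2 ways that touch the values below. The 1 peak inside Firre held 10.7 times the mean input of chromosome X in the KO transgene line, 11.1 times in the line labelled KO control, 14.9 times in the WT transgene line and 0.694 times in the WT control line. The line labelled KO control therefore goes against its label, and the tests that rest on it are also given without it where a fit allows. Raw H3K27me3 counts in the Firre peak at 48 h and 0 h were 47 and 172 for the KO transgene line. They were 57 and 263 for the WT transgene line. The labelled KO control, with 177 and 164, did not show this drop, and the WT control had 0 and 1. These changes were not tested. Chromosome 11 took 10.5% ± 0.662 of input counts in KO libraries and 8.35% ± 0.109 in WT libraries (SD, n = 4 libraries from 2 lines each). It took 10.2% ± 0.675 of H3K27me3 counts in KO libraries and 8.10% ± 0.109 in WT libraries. The KO spread lay between lines and not between times. In input the share was 9.96% and 9.98% at 48 h and 0 h in the KO transgene line, and 11.1% at both times in the line labelled KO control.

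Polycomb proteins keep developmental genes silent through a pair of enzyme complexes. PRC2, whose catalytic subunit is EZH1 or EZH2, writes H3K27me3, and canonical PRC1 reads the mark through a CBX subunit and compacts chromatin, while variant PRC1 can be brought to unmethylated CpG islands by KDM2B. KDM6B, a demethylase also known as JMJD3, removes the mark. In mouse embryonic stem cells CBX7 is the main CBX reader, and the genes of other readers are themselves known targets of Polycomb.

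Promoter sequences of Bmi1, Cbx8, Ezh1 and Phc2 are shown because they contrast a gene start inside an H3K27me3 peak with one outside. Each covers 250 bases before to 50 bases after a RefSeq start (GRCm38.p6), written 5′ to 3′ along the gene. Capitals mark CG, the motif searched; it reads the same on both strands. Bmi1 at chr2:18676768-18677067 on the plus strand and Cbx8 at chr11:119040864-119041163 on the minus strand start inside a peak. Ezh1 at chr11:101226414-101226713 on the minus strand starts 11.7 kb from the nearest peak, and the Phc2 start at chr4:128727321-128727620 on the plus strand lies 375 bases from one.
Bmi1: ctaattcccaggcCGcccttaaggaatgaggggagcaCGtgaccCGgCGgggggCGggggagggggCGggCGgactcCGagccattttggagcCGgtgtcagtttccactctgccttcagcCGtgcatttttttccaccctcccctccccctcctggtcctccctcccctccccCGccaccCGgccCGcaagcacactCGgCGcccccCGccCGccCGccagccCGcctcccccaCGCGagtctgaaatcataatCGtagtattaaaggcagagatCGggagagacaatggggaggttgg
Cbx8: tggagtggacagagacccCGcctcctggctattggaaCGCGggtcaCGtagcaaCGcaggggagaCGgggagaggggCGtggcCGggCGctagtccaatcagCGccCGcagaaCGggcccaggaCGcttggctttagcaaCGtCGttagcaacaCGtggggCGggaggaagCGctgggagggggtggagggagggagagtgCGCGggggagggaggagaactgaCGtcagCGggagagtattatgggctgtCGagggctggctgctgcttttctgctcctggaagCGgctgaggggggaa
Ezh1: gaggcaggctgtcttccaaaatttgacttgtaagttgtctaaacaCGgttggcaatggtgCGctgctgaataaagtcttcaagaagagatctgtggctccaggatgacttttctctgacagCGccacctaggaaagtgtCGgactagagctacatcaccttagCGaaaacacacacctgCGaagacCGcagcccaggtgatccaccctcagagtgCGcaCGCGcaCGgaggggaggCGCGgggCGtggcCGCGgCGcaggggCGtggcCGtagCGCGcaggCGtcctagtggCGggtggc
Phc2: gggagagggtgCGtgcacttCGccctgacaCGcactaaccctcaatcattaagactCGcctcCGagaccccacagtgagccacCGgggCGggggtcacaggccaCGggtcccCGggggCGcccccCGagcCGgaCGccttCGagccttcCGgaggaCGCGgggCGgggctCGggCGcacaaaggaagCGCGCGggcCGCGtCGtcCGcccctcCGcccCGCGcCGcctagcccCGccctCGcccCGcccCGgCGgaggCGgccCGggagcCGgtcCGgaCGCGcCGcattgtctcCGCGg
The table matched 5 of the 7 genes with 10 promoters, and Cbx2 and Kdm6b are named only. The Bmi1 promoter held 23 CG, that of Cbx8 24, that of Ezh1 23 and the Phc2 promoter shown 45. The other Phc2 starts held 19 and 2 CG and lay 172 and 552 bases from a peak. The 4 Kdm2b starts held 18 to 49 CG and lay 17.7 to 49.3 kb from the nearest consensus peak, which was not always the Kdm2b peak. Across 32851 promoters of the same length, 94.6% held a CG, the median was 7, and 30.1% had their start inside a consensus peak. The median was also 7 among those whose start lay in a peak. A count of CG is a description of these letters and not a binding site.

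The peaks lay differently at each gene. Cbx2 (chr11:119023019-119031275), a CBX reader, was framed rather than covered, with 7.88% of its span in peaks. Its first peak (chr11:119010416-119022882) ended 137 bases before the gene and its second was 651 bases long and inside it. The third peak (chr11:119031301-119111193) began 26 bases past the gene and ran for 79.9 kb. That peak covered all of Cbx8 (chr11:119036303-119040913), another CBX reader. Values of Cbx8 are those of this peak, and it supplies most counts of Cbx2, so the 2 genes are not independent.

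Ezh1 (chr11:101191115-101226463), a catalytic subunit of PRC2, had no peak over its own span. The 32.9 kb peak counted to it (chr11:101156391-101189299) ended 1816 bases away and lay over Tubg2, Plekhh3, Ccr10 and Cntnap1. Kdm6b (chr11:69398508-69420367) likewise had only a 4.02 kb peak 932 bases beyond its span, inside Dnah2 (chr11:69421299-69425320). Values given for Ezh1 and Kdm6b are thus values of neighbouring chromatin within the 2 kb window.

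Bmi1 (chr2:18677018-18686629), the PRC1 subunit that supports the ubiquitin ligase RING1B, was covered whole by a 44.8 kb peak (chr2:18674333-18719103) that also reached Commd3 and Spag6. Kdm2b (chr5:122870664-122989270) had a single 5.04 kb peak (chr5:122949659-122954699) over 4.25% of its span, where the lncRNA Gm33118 also lies. Phc2 (chr4:128654655-128752881), a PRC1 subunit that links complexes through its SAM domain, had 10 peaks covering 55.8% of it. With the gene span alone, 5 of the 7 genes kept a peak. Of the 21900 coding genes, 53.5% had a peak within 2 kb.

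**Figure D1:**
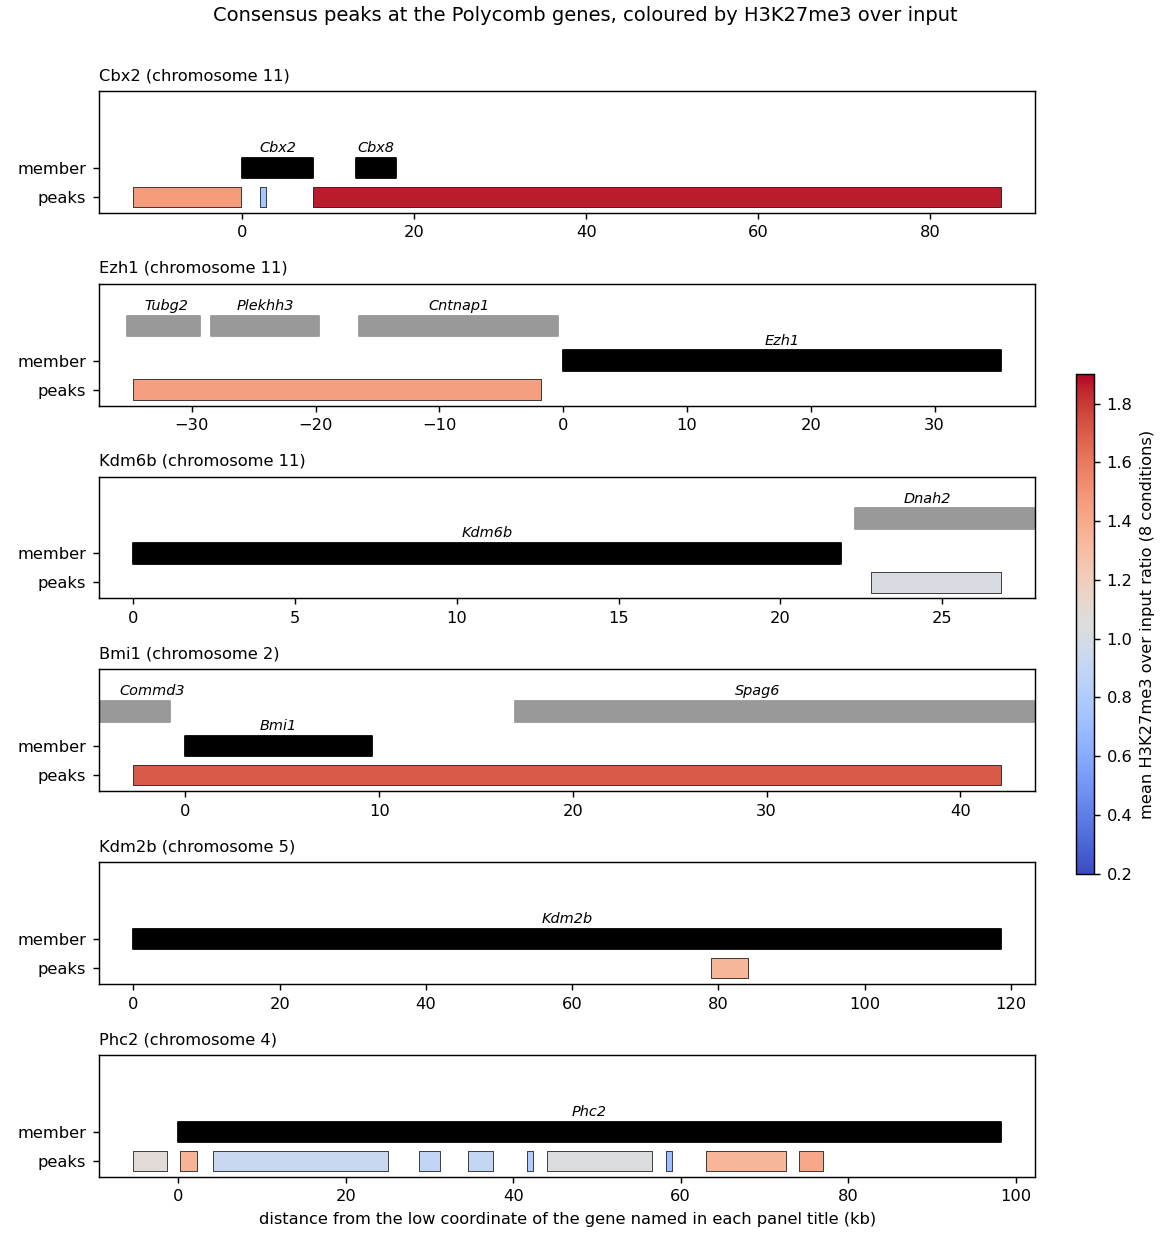
Position of the consensus peaks (coloured boxes) and of the genes (black for the 7 genes, grey for neighbours) in kb from the low coordinate of the gene named above each panel; colour gives the mean H3K27me3 over input ratio of 8 conditions. Cbx8 and Bmi1 lie inside 1 long enriched peak each, Cbx2 lies between peaks, and the peaks counted to Ezh1 and Kdm6b lie outside those genes.

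Levels were compared as the ratio of H3K27me3 to input counts, each given as counts per 1000000 counts in all peaks of its library (CPM). A ratio of 1 therefore marks the average consensus peak and not absence of the mark. The readers stood highest. Over 8 conditions Cbx8 had a lowest ratio of 1.69, a median of 1.84 and a highest of 2.13, with a mean of 1.86 ± 0.129. Cbx2 ranged from 1.65 over a median of 1.78 up to 2.07, with a mean of 1.80 ± 0.127. Both were above 1 in 8 of 8 conditions and lay below the Hox median of 2.18.

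Bmi1 ranged from 1.61 to 1.86 with a median of 1.70 and a mean of 1.70 ± 0.0772. The Ezh1 neighbourhood ranged from 1.36 to 1.56 with a median of 1.46 and a mean of 1.45 ± 0.0651. These were above 1 in all 8 conditions as well. Kdm2b, whose 5.04 kb peak gave only 164 to 262 H3K27me3 counts per library, ranged from 0.972 to 1.76 with a median of 1.34 and a mean of 1.34 ± 0.253. Phc2 had a mean of 1.04 ± 0.0750 and the Kdm6b neighbourhood 1.02 ± 0.161, both above 1 in 5 of 8 conditions.

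In this order, Cbx8 was above Cbx2, Cbx2 above Bmi1 and Bmi1 above Ezh1 in 8 of 8 conditions. Cbx8 and Cbx2 share the long peak, so their order only reflects the lower ratios of the other Cbx2 peaks (means of 1.46 and 0.754). Ezh1 exceeded Kdm2b in 6 of 8 by 0.106 ± 0.256, and Phc2 exceeded Kdm6b in 3 of 8 by 0.0190 ± 0.196, so neither of these neighbours differed beyond its spread. The order of H3K27me3 per length was not the same, with 4.62 ± 0.909 CPM per kb for Cbx8, 4.47 ± 0.854 for Cbx2, 3.75 ± 0.610 for Ezh1 and 3.51 ± 0.154 for Bmi1. Input per length was 2.47 ± 0.358, 2.47 ± 0.347, 2.58 ± 0.363 and 2.06 ± 0.0689 CPM per kb in the same genes.

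**Figure D2:**
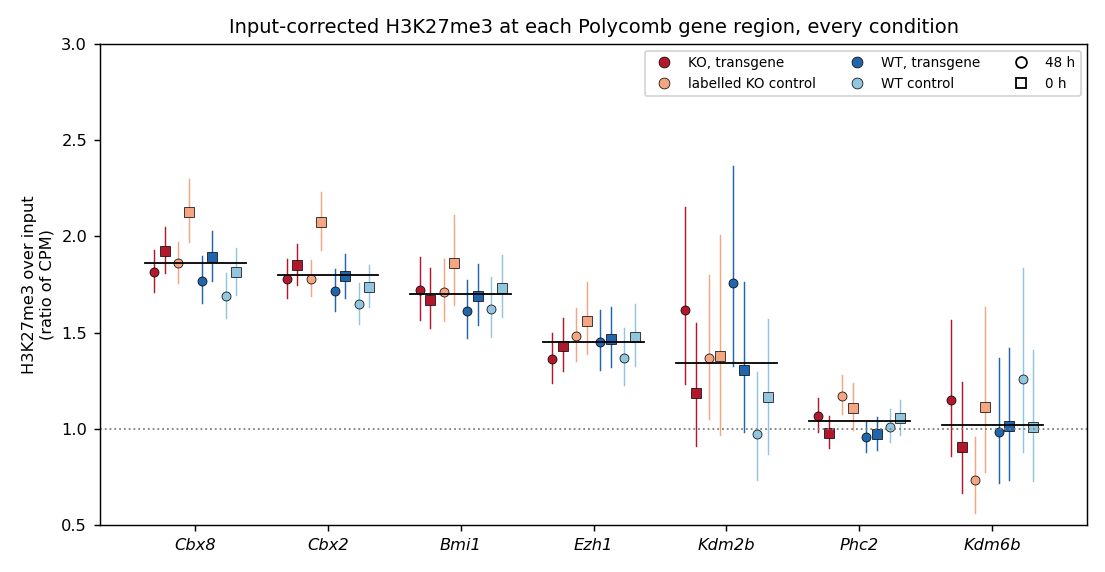
Ratio of H3K27me3 to input CPM (vertical axis) at each gene region, ordered by mean, for 4 lines (colours) at 48 h (circles) and 0 h (squares); thin lines are 95% exact binomial intervals of counting error, and black bars are means of 8 conditions. Cbx8 (1.86), Cbx2 (1.80), Bmi1 (1.70) and Ezh1 (1.45) stand above 1 in every condition, while Phc2 (1.04) and Kdm6b (1.02) straddle it.

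Tested against input in 1 fit over all gene regions, 5 of the 7 genes were higher in H3K27me3, where 28.7% of 18360 regions were called higher (edgeR quasi-likelihood test, Benjamini-Hochberg adjustment). The log2 difference of H3K27me3 over input was 0.89 ± 0.02 for Cbx8 and 0.84 ± 0.02 for Cbx2 (± SE; edgeR adjusted p = 1.67e-37 and 5.27e-37). It was 0.76 ± 0.03 for Bmi1, 0.53 ± 0.03 for Ezh1 and 0.41 ± 0.08 for Kdm2b, the last with an edgeR adjusted p of 8.64e-06. Phc2, at 0.05 ± 0.03, and Kdm6b, at -0.01 ± 0.08, were not called (edgeR adjusted p = 0.113 and 0.898). The same 5 genes were called with DESeq2 and without the line labelled KO control, and with TMM scaling Phc2 was called as well, at 0.07 (edgeR adjusted p = 0.0346). With the gene span alone Cbx2 turned to -0.52, since only its small inner peak remained, with 11 to 26 H3K27me3 counts per library.

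Phc2 as a whole hid a contrast along the gene. Its peak 9 (chr4:128717626-128727196) had ratios of 1.52 and 1.33 in the KO transgene line at 48 h and 0 h. The line labelled KO control had 1.68 and 1.16. In the WT transgene line the ratios were 1.21 and 1.12, and in the WT control line 1.38 and 1.34. All 8 were above 1, although the KO and WT values overlapped. Tested over single peaks, where 7.76% were called higher and 36.0% lower, Phc2 peaks 2, 9 and 10 were higher than input by 0.36 ± 0.11, 0.42 ± 0.06 and 0.36 ± 0.10 on the log2 scale. Peaks 3 and 8 were lower by -0.13 ± 0.04 and -0.56 ± 0.19 (edgeR quasi-likelihood test, adjusted p from 7.55e-11 to 0.0115 over these 5 peaks). The other 5 Phc2 peaks were not called. The lower calls depended on the scaling. Total counts put the median of all peaks at -0.21, whereas TMM and DESeq2 put it at -0.05, with 13.8% of peaks higher and 9.81% lower by TMM and 10.1% and 2.80% by DESeq2. Under both, peaks 2, 9 and 10 were called higher, and so was peak 7, at 0.20 and 0.21. None of the 10 was called lower there, with no adjusted p from DESeq2 for peaks 6 and 8, and peak 3, the longest at 20.9 kb, turned to 0.03 and 0.04. Peak 2 is the one nearest to the RefSeq start with 19 CG, and peak 9 the one nearest to the start with 45 CG. Peak 10 lies on the other side of the latter start. Peak 1, on the other side of the start with 19 CG, was not called under any of these scalings.

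**Figure D3:**
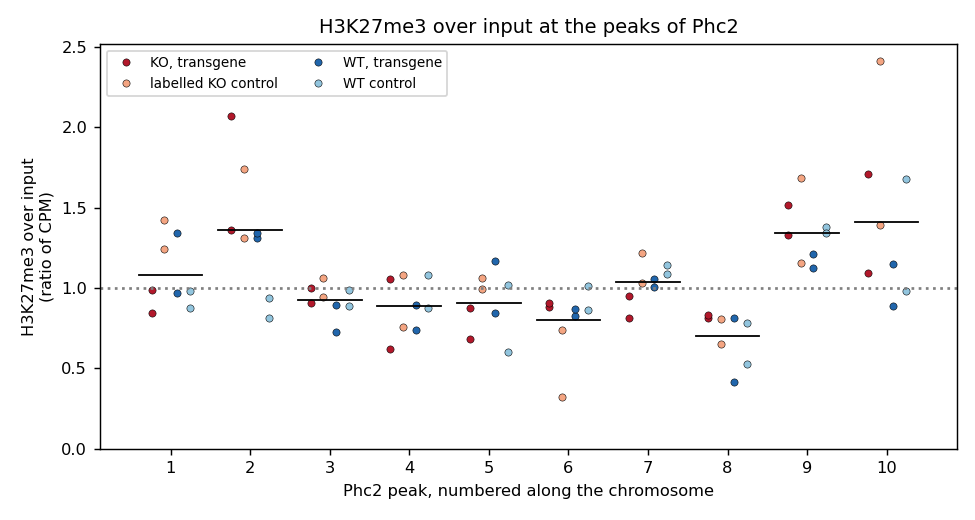
Ratio of H3K27me3 to input CPM (vertical axis) at the 10 peaks of Phc2, numbered along the chromosome; points are the 2 times of each line (colours) and bars are means of 8 conditions. Peaks 2, 9 and 10 average 1.36, 1.34 and 1.41, and peaks 3 to 6 and 8 average below 1.

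Over 48 h of doxycycline, H3K27me3 fell slightly at Cbx2, Cbx8, Bmi1 and the Ezh1 neighbourhood, in 4 of 4 lines each. At Cbx8 the level was 383, 444, 301 and 286 CPM at 48 h in the KO transgene, labelled KO control, WT transgene and WT control lines, against 407, 486, 325 and 318 at 0 h. The 48 h value was the lower one within every line, by 0.941-, 0.915-, 0.927- and 0.899-fold, although the groups of 48 h and 0 h libraries overlapped. Input at Cbx8 was 0.965- to 1.05-fold of its 0 h value.

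Bmi1 had 153, 157, 149 and 147 CPM at 48 h in the same order of lines, against 163, 165, 163 and 162 at 0 h. No 48 h library reached the lowest 0 h library, and the share of all regions with such a gap was not counted. At Ezh1 the ratio of 48 h over 0 h was between 0.930 and 0.935 in the 4 lines, and at Cbx2 between 0.927 and 0.950.

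The log2 change over time was -0.12 ± 0.02 for Cbx8, -0.09 ± 0.02 for Cbx2, -0.11 ± 0.02 for Bmi1 and -0.10 ± 0.03 for Ezh1 (edgeR quasi-likelihood test, adjusted p = 3.15e-08, 1.22e-05, 0.00291 and 0.0237). These 4 of 7 genes compare with 1.49% of 18362 regions called lower and 0.474% called higher. Phc2 changed by 0.05 ± 0.03, Kdm2b by 0.14 ± 0.07 and Kdm6b by 0.01 ± 0.09, none called (edgeR adjusted p = 0.460, 0.405 and 0.988). At Kdm2b the ratio of 48 h over 0 h was 1.12, 1.06, 1.25 and 0.954 in the KO transgene, labelled KO control, WT transgene and WT control lines, so 1 line moved against the others. In input, 0 of 7 were called beside 0% of regions, 0 also at an unadjusted p under 0.05, with log2 values from -0.05 to 0.02 (edgeR). With input as an offset no member was called, although Cbx8 stayed at -0.12 and Cbx2 at -0.11, while Ezh1 had -0.07 and Bmi1 -0.06 (edgeR adjusted p from 0.215 to 0.841). Without the line as a block none was called either, at -0.12 for Cbx8 and -0.09 for Cbx2. An offset that followed enrichment brought Cbx8 to -0.05, Cbx2 to -0.04, Ezh1 to -0.07 and Bmi1 to -0.06, none called (edgeR adjusted p from 0.0743 to 0.283). DESeq2 called Cbx2 and Cbx8 only. Leaving out 1 library kept 2 or 3 of the calls: Ezh1 was lost with any library left out, and Bmi1 with any of the 4 WT libraries left out. Without the line labelled KO control, Cbx2, Cbx8 and Bmi1 were called.

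The peaks on either side of Cbx2 did not move together. The peak before the gene had 48.3, 55.2, 39.0 and 43.2 H3K27me3 CPM at 48 h in the KO transgene, labelled KO control, WT transgene and WT control lines, against 47.1, 53.8, 37.4 and 37.0 at 0 h. It was thus 1.02- to 1.17-fold at 48 h in the 4 lines, where the long peak past the gene was 0.899- to 0.941-fold. The difference between the peaks in log2 change was 0.12, 0.16, 0.17 and 0.38 in those lines, positive in 4 of 4, with a mean of 0.21 ± 0.12 (SD). An exact two-sided sign-flip test over lines gave p = 0.125, the smallest that 4 lines allow. In input the same difference averaged 0.04 ± 0.21 and was positive in 2 of 4 lines (exact p = 0.625). For the line labelled KO control it was 0.28 in input, above its 0.16 in H3K27me3, so the sign there does not hold per input. The first peak alone was not called over time, at 0.08 ± 0.04 (edgeR adjusted p = 0.758), while the third peak and the Bmi1 peak were, among the 0.102% of single peaks called lower.

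**Figure D4:**
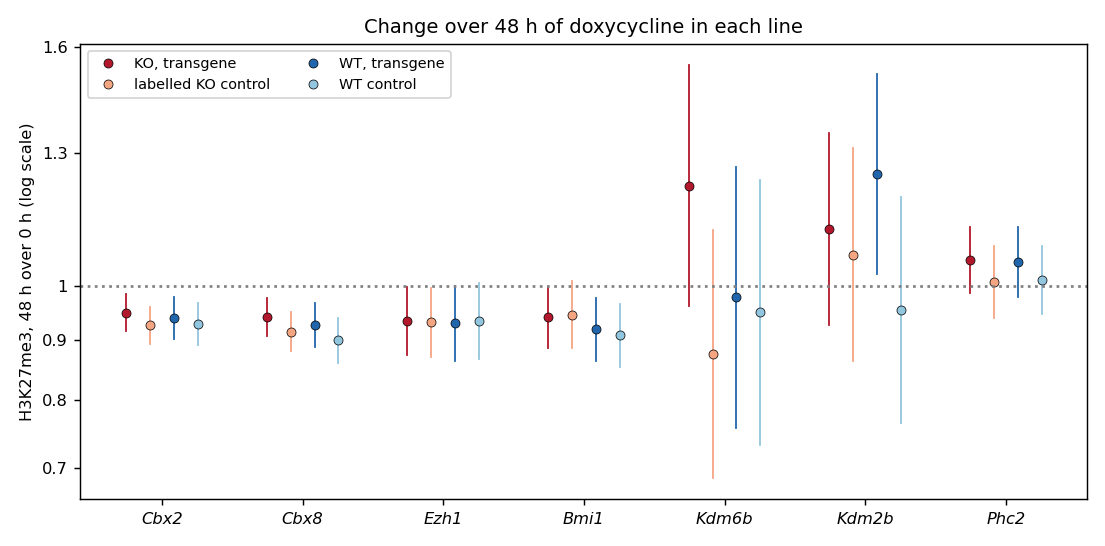
H3K27me3 CPM at 48 h divided by those at 0 h (vertical log axis) at each gene region in each line (colours), with 95% exact binomial intervals of counting error. Cbx2, Cbx8, Ezh1 and Bmi1 lie below 1 in 4 of 4 lines, between 0.899 and 0.950.

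Whether Firre induction altered this change was tested as the change over time in the transgene lines minus that in the lines without it. None of the 7 genes was called in H3K27me3, and none had an unadjusted p under 0.05 (edgeR; DESeq2 and limma-voom also called 0). Over all regions 0.0490% were called in either direction. The largest differences were 0.28 ± 0.18 at Kdm6b and 0.22 ± 0.15 at Kdm2b, the genes with the fewest counts (edgeR adjusted p = 0.953 and 0.956). For Cbx2, Cbx8, Ezh1 and Bmi1 they lay between 0.00 ± 0.05 and 0.05 ± 0.03. Without the line labelled KO control 0 of 7 were called, with Kdm6b at 0.21 ± 0.23 and Kdm2b at 0.30 ± 0.19 (edgeR adjusted p = 0.998 for both), and 0 had an unadjusted p under 0.05. The fall over 48 h at Cbx2, Cbx8, Ezh1 and Bmi1 was seen in lines labelled with and without the transgene, all with the same treatment label. Of the lines labelled without it, only the WT control line had no excess of input in the Firre peak (0.694 times the mean of chromosome X). The labelled KO control had that excess, but not the drop of H3K27me3 counts in the Firre peak seen in both transgene lines. The cause of the fall at Cbx2, Cbx8, Ezh1 and Bmi1 was not tested.

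Lines with the transgene were also compared with those without it over both times. No gene was called (edgeR; DESeq2 and limma-voom 0), where 1.44% of regions were called in either direction, but 4 of 7 had an unadjusted p under 0.05. The log2 value was -0.11 ± 0.04 for Cbx2, -0.10 ± 0.04 for Cbx8, -0.09 ± 0.04 for Ezh1 and 0.18 ± 0.08 for Kdm2b (edgeR adjusted p = 0.141, 0.188, 0.309 and 0.336). Without the WT control library at 48 h Cbx2 and Cbx8 passed the threshold, and without any of the other 3 WT libraries Cbx2 alone did. Without the line labelled KO control only Kdm2b passed. In input -0.10 ± 0.03 was found for Cbx2 and -0.09 ± 0.03 for Cbx8, and 0 of 7 genes were called beside 0.346% of regions (edgeR; 2 had an unadjusted p under 0.05).

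KO lines had more H3K27me3 counts than WT lines at the genes on chromosome 11, and more input counts there too. At Cbx2 H3K27me3 was 433, 456, 502 and 541 CPM in the KO transgene line at 48 h and 0 h and the line labelled KO control at 48 h and 0 h, against 342, 364, 330.4 and 356 in the WT transgene and WT control lines in the same order. Input at Cbx2 was 244, 247, 282 and 261 CPM in those KO libraries, against 199, 203, 200.4 and 205 in the WT libraries. The KO and WT libraries did not overlap in either assay. How many other regions separate in this way was not counted, here or for the genes below. Regions of chromosome 11 had a median log2 KO over WT of 0.35 in H3K27me3 and 0.36 in input, so a gap there is not particular to these genes.

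The Ezh1 neighbourhood had 125, 134, 145 and 156 H3K27me3 CPM in KO libraries, against 105, 113, 101 and 108 in WT libraries. Its input was 91.9, 93.5, 97.9 and 99.7 in KO libraries, against 72.2, 76.8, 73.9 and 73.1 in WT libraries. Again no KO library overlapped a WT library in either assay. At Kdm6b the means were 11.5 ± 1.36 in KO and 9.23 ± 0.281 in WT libraries for H3K27me3, and 12.1 ± 2.40 in KO and 8.76 ± 1.17 in WT libraries for input (SD, n = 4 each), without overlap.

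Off chromosome 11 the libraries overlapped in both assays. Bmi1 averaged 159 ± 5.64 H3K27me3 CPM in KO and 155 ± 8.14 in WT libraries, with input of 91.7 ± 3.93 in KO and 93.1 ± 2.34 in WT libraries. Kdm2b averaged 16.7 ± 0.880 in KO and 14.2 ± 2.58 in WT libraries, with input from 10.9 to 13.4 in KO and from 10.1 to 12.4 in WT libraries. Phc2 averaged 136 ± 3.81 in KO and 128 ± 3.89 in WT libraries, and its input 126 ± 6.34 in KO and 128 ± 4.92 in WT libraries.

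In H3K27me3, 6 of the 7 genes were called higher in KO, where 9.69% of all regions and 85.9% of the 1316 regions on chromosome 11 were, so the count of 4 of 4 genes on that chromosome is near its background. The log2 KO over WT was 0.48 ± 0.04 for Cbx2, 0.49 ± 0.04 for Cbx8 and 0.40 ± 0.04 for Ezh1 (edgeR quasi-likelihood test, adjusted p = 4.87e-11, 7.62e-11 and 8.29e-09). Kdm6b had 0.32 ± 0.09, Kdm2b 0.25 ± 0.08 and Phc2 0.10 ± 0.03 (edgeR adjusted p = 0.0178, 0.0432 and 0.0196), and Bmi1, at 0.05 ± 0.03, was not called (0.260). Off chromosome 11, 3.80% of regions were called higher. The median over chromosome 11 was 0.35 in H3K27me3 and 0.36 in input.

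In input, Cbx2, Cbx8, Ezh1 and Kdm6b were called higher by 0.38 ± 0.03, 0.39 ± 0.03, 0.39 ± 0.05 and 0.49 ± 0.14 (edgeR adjusted p = 5.68e-17, 7.63e-17, 2.43e-10 and 0.0131), beside 5.52% of all regions and 75.7% of those on chromosome 11. Bmi1, Kdm2b and Phc2 had 0.00 ± 0.05, 0.17 ± 0.13 and -0.01 ± 0.04 and were not called. Without the line labelled KO control, Cbx2, Cbx8 and Ezh1 remained called in H3K27me3, at 0.34, 0.34 and 0.26, and in input, at 0.30, 0.32 and 0.33, while Kdm6b, Kdm2b and Phc2 were not. DESeq2 called none of these 3 in H3K27me3. With 1 library left out, Kdm2b stayed called in 3 of 8 fits, at 0.15 to 0.35, and Kdm6b and Phc2 in 4 of 8 each. The Kdm2b value was lowest without the WT control library at 48 h and was 0.08 without the line labelled KO control. In input Kdm6b stayed called in 6 of 8 such fits. It had 0.26 without the library of the line labelled KO control at 48 h, 0.32 without the WT control library at 48 h and 0.17 without that line at both times (edgeR adjusted p = 0.633, 0.384 and 0.899).

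Per input, meaning the KO over WT difference in H3K27me3 minus that in input, 0 of the 7 genes were called (edgeR; DESeq2 also 0), against 0.643% of regions in either direction. At an unadjusted p under 0.05 there were 3. The values were 0.10 ± 0.04 for Cbx2, 0.09 ± 0.04 for Cbx8, 0.00 ± 0.06 for Ezh1 and -0.17 ± 0.16 for Kdm6b, and 0.05 ± 0.05 for Bmi1, 0.10 ± 0.15 for Kdm2b and 0.10 ± 0.05 for Phc2 (edgeR adjusted p from 0.278 at Cbx2 to 0.993 at Ezh1). Without the line labelled KO control 0 of 7 were called and 0 had an unadjusted p under 0.05. Cbx2 then had 0.07 ± 0.04, Cbx8 0.06 ± 0.05, Phc2 0.03 ± 0.06 and Ezh1 -0.05 ± 0.07 (edgeR adjusted p from 0.820 at Cbx2 to 0.957 at Phc2). Single libraries were compared in the same way. The H3K27me3 over input ratio of Cbx2 was 1.78, 1.85, 1.78 and 2.07 in KO libraries, against 1.72, 1.79, 1.65 and 1.74 in WT libraries, which overlapped. An exact two-sided permutation test of 4 KO against 4 WT libraries gave its lowest p over the 7 genes at Cbx2, 0.0857, with 0.0286 the smallest possible. Exchanging whole lines cannot give an exact p below 0.333.

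At Cbx2, Cbx8 and Ezh1 the KO over WT difference in H3K27me3 was smaller between the transgene lines than between the lines labelled without it. A term for background and transgene together, added after seeing the data, was called lower at these 3 of 7 genes, where 3.20% of all regions and 20.1% of those on chromosome 11 were (edgeR quasi-likelihood test, adjusted p from 1.40e-14 at Cbx8 to 3.29e-05 at Ezh1). In input 0 of 7 were called beside 0.203% of regions, and for H3K27me3 minus input 0 of 7 beside 0% of regions (edgeR; 3 and 0 had an unadjusted p under 0.05).

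**Figure D5:**
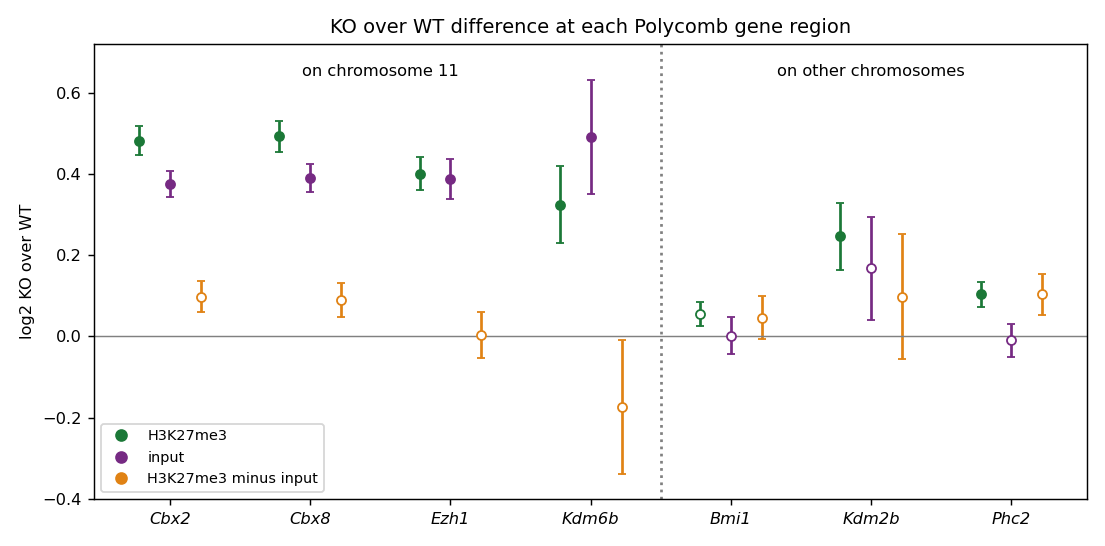
Log2 KO over WT (vertical axis) at each gene region for H3K27me3, input and their difference, with bars of 1 SE from the fit; filled points passed the adjusted threshold of 0.05 and open points did not. The 4 genes on chromosome 11 lie between 0.32 and 0.49 in both assays, and no difference between the assays is filled.

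Among single peaks, 7 of the 17 were higher in KO in H3K27me3, beside 3.80% of all peaks. The share of single peaks called higher on chromosome 11 was not counted. For gene regions, which can pool several peaks, it was 85.9% there. Of the 7 peaks, 5 lie on chromosome 11 and are all the peaks of these genes there. The other two were the Kdm2b peak, at 0.26 ± 0.08, and Phc2 peak 9, at 0.20 ± 0.06 (edgeR adjusted p = 0.0247 and 0.0242). Phc2 peak 9 had 27.7, 28.1, 29.9 and 28.7 H3K27me3 CPM in KO libraries, against 26.1, 24.5, 26.7 and 24.1 in WT libraries. The groups did not overlap, and its input difference was 0.00 ± 0.10. The share of all peaks without such overlap was not counted. Neither call held without the line labelled KO control (edgeR adjusted p = 0.522 for Phc2 peak 9 and 0.867 for Kdm2b), and per input neither peak was called.

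Of 34 further Polycomb genes, 9 had a peak by the same rule: 7 of 18 PRC1 genes, 1 of 11 PRC2 genes and 1 of 5 genes of opposing enzymes. Their regions had a median ratio of 1.06 ± 0.0372, against 0.976 ± 0.00612 over all gene regions (SD over 8 conditions). Of the 9, 5 were called higher in H3K27me3 than in input, where 28.7% of all regions were (edgeR quasi-likelihood test). Bcor and Bcorl1, corepressors of a variant PRC1, had ratios of 1.87 ± 0.111 and 1.76 ± 0.171. Bap1, which removes the PRC1 mark from H2A, had 1.16 ± 0.0597. Phf19, a PRC2 accessory factor, had 1.12 ± 0.114, and Pcgf5, a variant PRC1 subunit, had 1.10 ± 0.0599.

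Over 48 h, 1 of the 9 was lower, Bcor at -0.11 ± 0.03 (edgeR adjusted p = 0.0481, just under the threshold), where 1.49% of all regions were called lower. Between KO and WT lines, 1 of the 9 was lower, Pcgf5 at -0.10 ± 0.03 (edgeR adjusted p = 0.0252), where 3.55% of all regions were called lower. None of the 9 was called for induction, for the transgene or per input, beside 0.0490%, 1.44% and 0.643% of all regions in either direction (edgeR). The list had a median log2 change of -0.03 over time, and the 7 genes one of -0.09, against 0.00 over all regions.

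Genes with the pattern most like each member were sought on other chromosomes, by the distance of the log2 ratio of H3K27me3 over input across the 8 conditions. For Cbx2 the nearest regions were those of Foxd2 and Foxe3 (distance 0.131) and of Pdx1 and Cdx2 (0.137), and for Cbx8 those of Nkx2-3 (0.144) and Gm33152 (0.150). Foxd2, Foxe3, Pdx1, Cdx2 and Nkx2-3 encode developmental transcription factors. Nearest to Bmi1 were the regions of Lhx1 and Aatf (0.0899) and of Gm29683 (0.114), and nearest to Ezh1 those of Krt82, Krt90 and Krt75 (0.108) and of Sim1 (0.115). For Phc2 these were Tmem150c (0.151) and Gm33931 (0.162). Kdm2b, with Car11 and Dbp (0.428) and Klhl33 (0.459), and Kdm6b, with Gm6408 (0.277) and Gm39736 (0.309), had no gene as close, and both have few counts.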

How the data were processed

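The deposited table gave read counts per consensus peak for each library, as whole numbers without normalisation. The deposited peak list gave the authors' score, fold enrichment and −log10 q-value per peak; these belong to a peak and not to a library, and no result here uses them. Per the submitters' processing notes the build was mm10, and MACS2 2.2.71, BWA 0.7.17-r1188, DESeq2 1.26.0 and featureCounts were used, with no role stated. The libraries behind the peak call are not named in the sources used here, and a peak called mainly from some libraries would favour them. Coordinates of peaks are printed as the authors gave them, with a start that may count from 0 or 1. Counts over long peaks cannot show changes narrower than a peak.

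Gene spans and promoters came from RefSeq tables of GRCm38.p6, the assembly of mm10, without exons. Counts of peaks overlapping a coding or lncRNA gene's span ± 2 kb were summed into 18362 regions, and genes that overlap the same set of peaks form 1 region. Library sizes were total counts in peaks. Tests were edgeR 4.0.16 quasi-likelihood F tests (R 4.3.3; TMM factors, filterByExpr) on all regions and, apart, on all peaks, with Benjamini-Hochberg adjustment at 0.05. Time was tested beside line (3 residual degrees of freedom) and induction as transgene by time (2). Background and transgene were additive terms beside time (4). The difference per input used all 16 libraries (6), as did enrichment, which had the condition as block and total counts (7). Log2 values are ± SE of the fit. Intervals are 95% exact binomial and cover counting error only. Alternatives used DESeq2 1.42.0, limma-voom (limma 3.58.1), other scaling, filters and windows, and each library left out. Leaving out the line labelled KO control and the background by transgene term were added after seeing the data. For time and for that term on regions, the prior degrees of freedom were infinite. A gene's own spread thus had no weight there, and the spread common to all regions was used (common dispersion 9.77e-05). Small p-values from these fits therefore mostly follow the number of counts. Scripts were tested on simulated data.

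The 7 genes, the gene lists and the tests were chosen with earlier results of these data known. All 7 genes are named, with peaks past a threshold. Other Polycomb genes are named where past a threshold, except 1 gene that is not reported here, and genes of like pattern are the 2 nearest regions per member.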

Additional observations from a re-analysis of the deposited data

Results flagged for a closer look

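The KO over WT difference in H3K27me3 was smaller between the transgene lines than between the lines labelled without it at 3 genes on chromosome 11. The test was a term for background and transgene together, added after seeing the data. The log2 difference of KO over WT in transgene lines minus that in lines without it was -0.28 ± 0.03 for Cbx2, -0.30 ± 0.04 for Cbx8 and -0.29 ± 0.05 for Ezh1 (edgeR quasi-likelihood test, adjusted p = 2.45e-14, 1.40e-14 and 3.29e-05). The ratio of KO to WT H3K27me3 at Cbx8 was 1.26 between transgene lines and 1.54 between lines without it, and in input 1.23 and 1.36. Over all chromosome 11 peaks these ratios were 1.20 and 1.32 in H3K27me3 and 1.21 and 1.32 in input. In input the term was -0.16 ± 0.06 for Cbx2, -0.15 ± 0.06 for Cbx8 and -0.12 ± 0.10 for Ezh1, with 0 of 7 genes called and 3 at an unadjusted p under 0.05 (edgeR). For H3K27me3 minus input it was -0.11 ± 0.07, -0.14 ± 0.08 and -0.16 ± 0.11, with 0 of 7 called and 0 at an unadjusted p under 0.05 (edgeR). The term rests on 1 line per combination, among them the line labelled KO control, so line and genotype cannot be told apart.

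At Kdm6b the WT control library at 48 h had an H3K27me3 over input ratio of 1.26, far above the other WT libraries, which had 0.984, 1.01 and 1.01. Its interval of counting error ran from 0.880 to 1.83, on 122 H3K27me3 and 42 input counts. Of 14 groups of 4 libraries looked at in this way 1 stood out, and chance gives about 1 in 20.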

How the results depend on the processing

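No paired analysis was possible because every group holds 1 library, so replicate numbers pair nothing; the line served as the block over time instead. Of the 7 genes, 4 were called over time, and 0 with input as an offset, without the line as a block and with an offset that follows enrichment. DESeq2 and the gene span alone gave 2, and leaving out 1 library gave 2 to 3. Between KO and WT lines 6 were called, 0 with input as an offset, 3 with DESeq2, 3 without the line labelled KO control, and 3 to 6 with 1 library left out. For the transgene, 0 became 1 without the line labelled KO control and 0 to 2 with 1 library left out. Signs turned for Cbx2 with the gene span alone (0.11 over time, -0.52 over input), for Kdm6b in KO over WT with input as an offset (-0.14) and for Kdm2b per input without the WT control library at 48 h (-0.032, and up to 0.27 with another library left out). Over all regions, the calls over time were 87 higher and 273 lower, against 0 and 3 with input as an offset, and 0 and 30 with DESeq2, which gave 14952 regions no adjusted p. KO over WT calls were 1779 higher and 651 lower, against 115 and 47 with input as an offset and 1165 and 126 with DESeq2. The main filter removed no H3K27me3 region. A minimum mean count of 50 left 16219 regions, with 105 called higher and 292 lower over time. The causes were not tested. Kdm2b and Kdm6b, with 121 to 262 H3K27me3 and 39 to 97 input counts per library, had the fewest counts of the 7 genes and the widest counting intervals.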
